A study of Gallus gallus with 20 samples.

Results

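Messenger RNA of the breast muscle (pectoralis major) was compared between chickens of an organic and of a conventional raising system, gene by gene and by groups of genes with a shared role. The members are the 10 breast muscle libraries, 5 per system, of the 20 libraries in the series, and the 27170 genes of the deposited table, of which 12496 passed a filter on low counts and were tested. The other 10 libraries are liver, and they enter only where a difference between the tissues is tested.

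All birds came from a KRC flock of mixed sex and were kept in one environmentally controlled house, with feed and water freely available and slaughter age 91 days. Per system, 125 chicks were placed in 5 indoor pens of 25. Conventional birds ate a commercial feed and stayed indoors. Organic birds ate a feed made only from organic raw materials and could also go out onto a Ruzi grass pasture from day 21. Feed and outdoor access therefore changed together and cannot be told apart. The sex and pen of each sampled bird were not used here, so p-values measure only the spread between these libraries.

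The pectoralis major is the main flight muscle. In chickens it is made almost wholly of fast glycolytic fibres, which run on glycogen and glucose and hold few mitochondria. Its mass depends on the balance between protein synthesis, driven through insulin and IGF receptors and the kinase AKT, and protein breakdown by the ubiquitin-proteasome system and autophagy, which FoxO transcription factors switch on. Muscle also keeps a circadian clock that follows feeding and activity.

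Total counts lay between 12699692 and 13417005 per library. The values below are CPM, counts scaled to a fixed library size, after TMM scaling, and lists of 5 values follow replicates 1 to 5. The labelled tissue was checked per kilobase of gene length, where the most abundant transcripts were GAPDH of glycolysis, the skeletal actin ACTA1, the fast light chain MYL1 and the fast troponins TNNI2 and TNNT3. Pairwise correlations of log2 CPM had a median of 0.960 within a system and 0.958 between systems. Along the first principal component (18.7% of the variance) conventional replicate 1 and organic replicate 1 lay at opposite ends, on the second conventional replicate 3 stood apart, and on the third organic replicate 3.

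No gene passed the threshold across the whole transcriptome. With edgeR's quasi-likelihood test, 0 of 12496 genes had a Benjamini-Hochberg adjusted p under 0.05 (0%), and the smallest adjusted p was 0.567. An unadjusted p under 0.05 was reached by 934 genes (7.47%), of which 420 stood higher in organic muscle (3.36% of genes tested) and 514 lower (4.11%). That number was 614 without conventional replicate 1. In 154 genes (1.23%) the 5 organic libraries lay wholly above or wholly below the 5 conventional ones, 73 above (0.584%) and 81 below (0.648%). The log2 fold change, organic over conventional, was above 0 in 5999 genes (48%). DESeq2 on the same counts called 15 of 15417 genes (0.0973%), 9 higher and 6 lower. All 15 lay close to the threshold, with DESeq2 adjusted p from 0.041 to 0.0497. In what follows, genes are named as the 12 with the smallest p in each direction, the DESeq2 calls and up to 4 members of each gene list, and none of them passed with edgeR.

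Among the 12 genes with the smallest p on the higher side, log2 fold changes ran from 0.43 to 1.58, and in 8 of them the groups did not overlap. TBC1D16, a GTPase-activating protein for Rab proteins of membrane traffic (chromosome 18, 9565437 to 9586683, build GRCg6a), was at 27.8, 43.3, 35.5, 28.2 and 29.9 CPM in the conventional libraries and 47.05, 45.4, 49.4, 52.98 and 58.3 CPM in the organic libraries. Each organic library lay above each conventional one, and the log2 fold change was 0.62 ± 0.14 (± SE). MLF1, the myeloid leukemia factor 1 gene (chromosome 9, 22621538 to 22635771), was at 451, 311, 439, 533 and 336 CPM in the conventional libraries and 693, 582, 588, 759.7 and 711 CPM in the organic libraries. The groups were again apart, with a log2 fold change of 0.69 ± 0.17, and DESeq2 called it.

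SLC2A5 encodes GLUT5, the fructose transporter of the plasma membrane (chromosome 21, 3244323 to 3253164). It was at 3.97, 3.22, 1.08, 6.34 and 2.38 CPM in the conventional libraries and 13.1, 11.6, 7.34, 13.1 and 6.003 CPM in the organic libraries, so that only organic replicate 5 fell below the highest conventional library, replicate 4. Its log2 fold change of 1.58 ± 0.39 was the largest of the 12, and DESeq2 called it. SIK3, a kinase of the AMPK-related family that restrains the transcriptional coactivators of the CREB pathway (chromosome 24, 5145236 to 5215773), was at 19.6, 29.9, 26.7, 39.4 and 17.8 CPM in the conventional libraries and 45.6, 42.996, 61.9, 55.6 and 37.03 CPM in the organic libraries. Organic replicate 5 lay just below conventional replicate 4, and the log2 fold change was 0.87 ± 0.22.

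ELL, an elongation factor of RNA polymerase II (chromosome 28, 3997087 to 4031848), was at 71.6, 127, 65.2, 128 and 97.5 CPM in the conventional libraries and 152, 159.7, 206, 147 and 163 CPM in the organic libraries. The groups did not overlap and the log2 fold change was 0.76 ± 0.20, although the gene overlaps FKBP8 in position and reads of the pair may have been shared. ARRDC2, an alpha-arrestin, was at 151, 178, 137, 192 and 192 CPM in the conventional libraries and 509.6, 229, 249, 212 and 338 CPM in the organic libraries. All organic libraries were above all conventional ones, organic replicate 1 by far, and the log2 fold change of 0.86 ± 0.23 was 0.60 without that library. The small GTPase H-RAS stood at 0.48 ± 0.12, TRAF2, an adaptor of tumour necrosis factor receptors, at 0.73 ± 0.19, CMC4, a twin-cysteine protein of mitochondria, at 0.43 ± 0.11, and ZSWIM5 at 0.80 ± 0.20 on the log2 fold change scale. The transcriptional repressors BHLHE40 and BHLHE41 of the circadian clock complete the 12 and are described with the clock genes.

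**Figure D1:**
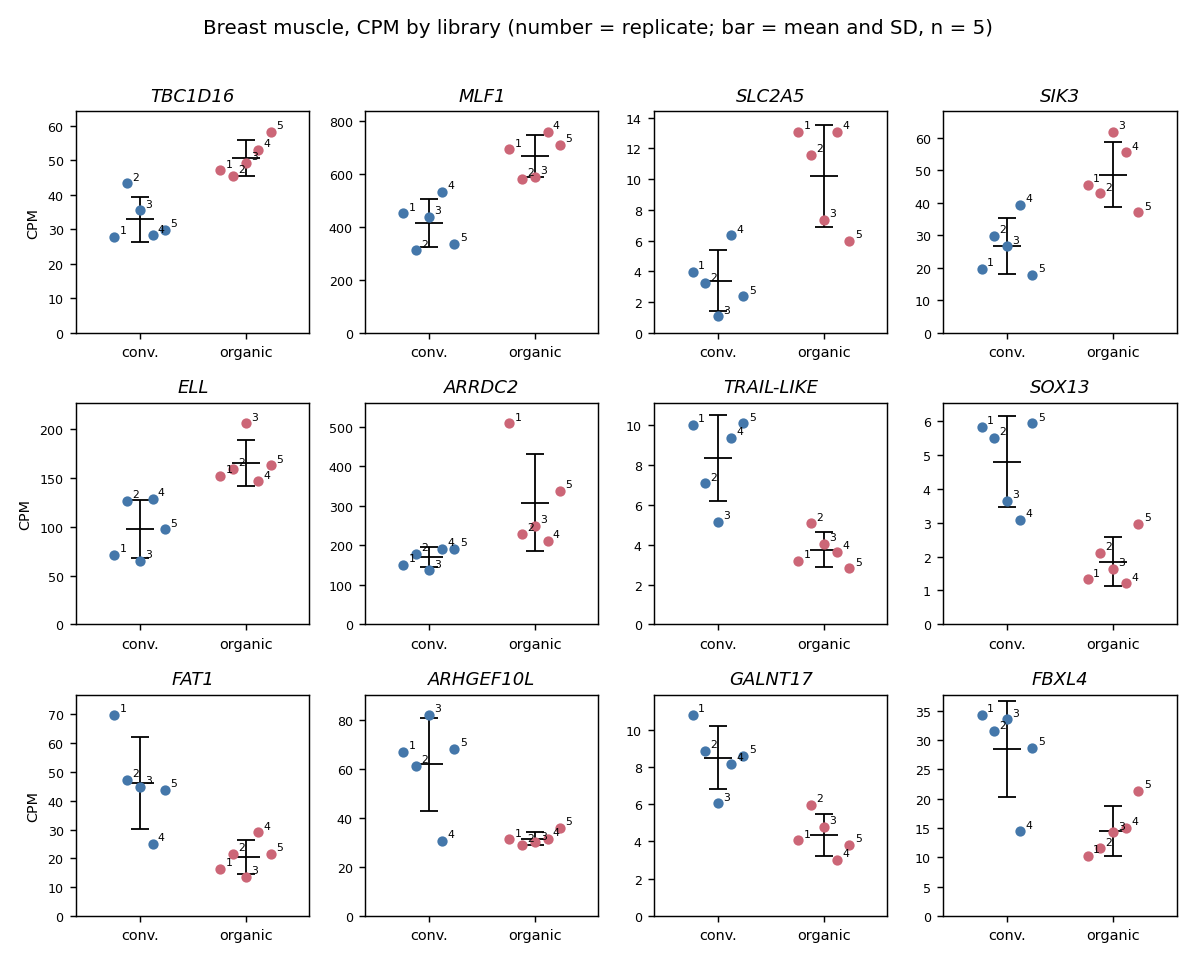
CPM by library of 12 of the genes with the smallest p, 6 higher and 6 lower in organic muscle, on linear axes from 0, with the replicate number beside each point and the mean and SD of 5 libraries as bars. In SOX13, TRAIL-LIKE, GALNT17, TBC1D16, MLF1, ELL and ARRDC2 the groups are apart, and in ARHGEF10L, FAT1 and FBXL4 the single conventional library within the organic range is replicate 4.

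On the lower side the 12 genes ran from 0.82 to 1.37 in the size of the log2 fold change, and in 7 the groups did not overlap. The smallest p of all belonged to TRAIL-LIKE, a ligand related to the death ligand TRAIL of the tumour necrosis factor family (chromosome 4, 9589706 to 9595509). It was at 10.03, 7.08, 5.15, 9.36 and 10.1 CPM in the conventional libraries and 3.18, 5.07, 4.04, 3.63 and 2.81 CPM in the organic libraries. The highest organic library, replicate 2, lay just under the lowest conventional one, replicate 3, and the log2 fold change was -1.15 ± 0.24. TNFSF10, the TRAIL gene itself, was lower as well at -0.93 ± 0.30, with overlapping groups. TNFRSF19, of the separate tumour necrosis factor receptor superfamily, was lower at -1.16 ± 0.29, with low organic values of 0.974 to 2.19 CPM.

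SOX13, a transcription factor of the SoxD group (chromosome 26, 1695658 to 1714634), was at 5.84, 5.51, 3.65, 3.09 and 5.94 CPM in the conventional libraries and 1.33, 2.12, 1.65, 1.21 and 2.96 CPM in the organic libraries. The groups did not overlap, and the log2 fold change of -1.37 ± 0.31 was the largest in size of the 12. GALNT17, of the family of enzymes that start mucin-type O-glycans, was at 10.8, 8.87, 6.06, 8.18 and 8.62 CPM in the conventional libraries and 4.07, 5.98, 4.79, 3.02 and 3.82 CPM in the organic libraries. Its groups were narrowly apart, with a log2 fold change of -0.97 ± 0.22.

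In ARHGEF10L (chromosome 21, 135941 to 156749), the overlap came from one library. It was at 66.8, 61.2, 81.97, 30.5 and 67.99 CPM in the conventional libraries and 31.1, 28.99, 30.03, 31.5 and 35.9 CPM in the organic libraries. The organic libraries were nearly level, 4 conventional libraries stood well above them, and conventional replicate 4 lay among the organic values. The log2 fold change was -0.97 ± 0.21 and -1.15 without that library, where ARHGEF10L became the 1 gene to pass with edgeR (adjusted p = 0.0114). FAT1, an atypical cadherin (chromosome 4, 61698013 to 61798424), was at 69.9, 47.2, 44.8, 25.1 and 43.7 CPM in the conventional libraries and 16.3, 21.6, 13.5, 29.02 and 21.5 CPM in the organic libraries, again with conventional replicate 4 in the organic range, and its log2 fold change was -1.18 ± 0.26. FBXL4, an F-box protein needed to maintain mitochondrial DNA, was at 34.3, 31.5, 33.6, 14.4 and 28.7 CPM in the conventional libraries and 10.3, 11.5, 14.2, 15.04 and 21.4 CPM in the organic libraries. Conventional replicate 4 was again the lowest of its group, and the log2 fold change was -0.98 ± 0.25.

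The rest of the 12 were the tweety family membrane protein TTYH2 at -0.90 ± 0.21, the sugar-phosphate exchanger SLC37A1 at -0.82 ± 0.19, the retinoic acid-forming enzyme ALDH1A2 at -1.03 ± 0.24, the co-repressor RUNX1T1 at -0.88 ± 0.22 and the kinesin-like KIF26A at -0.84 ± 0.22. Leaving out any 1 library kept the direction of all 24 genes and weakened none by more than 1.43 times. The 24 were picked by p in these same libraries, which largely fixes that outcome, so it is no independent support.

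DESeq2 called 15 genes: BHLHE40, MLF1 and SLC2A5 on the higher side and TRAIL-LIKE, ARHGEF10L, SOX13, FAT1 and GALNT17 on the lower side were among the 24 above. PROCA1 was at 7.65, 13.4, 12.71, 26.9 and 18.1 CPM in the conventional libraries and 25.2, 59.7, 31.1, 42.7 and 56.1 CPM in the organic libraries, with organic replicate 1 below conventional replicate 4, and an edgeR log2 fold change of 1.45 ± 0.33. LRRC30, a leucine-rich repeat gene, was at 6.203, 5.87, 4.82, 3.09 and 2.15 CPM in the conventional libraries and 0.531, 0.5299, 0.674, 1.74 and 2.26 CPM in the organic libraries, with conventional replicate 5 below organic replicate 5, and a log2 fold change of -1.94 ± 0.45. ST6GALNAC6, a sialyltransferase of gangliosides that overlaps ST6GALNAC4 in position, had groups that did not overlap and stood at 0.64 ± 0.14.

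PIM1, a serine/threonine kinase downstream of cytokine receptors, was at 4.62, 8.58, 5.98, 5.38 and 5.499 CPM in the conventional libraries and 9.29, 12.9, 66.4, 17.004 and 11.1 CPM in the organic libraries. Each organic library was above each conventional one, but organic replicate 3 was far above the others, and the log2 fold change of 1.96 ± 0.54 was 1.06 without it. That library also held the most heterophil transcript (summed CPM of 5 markers 31.98, against 2.96 to 4.86 in the other organic libraries), and its part in the result was not tested. Of these 5 markers 1 passed the filter on low counts and 1 was at 0 throughout. The remaining 3 calls, all higher, have no symbol in the table.

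Cytosolic chaperones, which fold new and damaged proteins, stood higher almost throughout. Of 41 tested members, 40 had a log2 fold change above 0, with a median of 0.36 beside -0.01 over all genes tested. An unadjusted p under 0.05 was reached by 15, all of them higher (36.6%, beside 7.47% of all genes tested). The summed level of the list was 5068 to 9378 CPM in conventional and 9336 to 20880 CPM in organic libraries, so that the groups overlapped by a single pair. Organic replicate 1 was the highest. Without it the median was 0.22, and without it and conventional replicate 1 it was 0.16, with 34 of 41 members higher. The co-chaperone PTGES3 was at 60.3, 60.8, 65.03, 72.5 and 68.1 CPM in the conventional libraries and 95.6, 73.96, 93.7, 85.5 and 76.8 CPM in the organic libraries. Its groups did not overlap, with a log2 fold change of 0.38 ± 0.11. CCT4, a subunit of the TRiC chaperonin that folds actin and tubulin, was at 0.42 ± 0.13.

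Chaperones of the endoplasmic reticulum gave a mixed picture. Of 23 members 14 stood higher, with a median of 0.06, and 4 reached an unadjusted p under 0.05, all higher (17.4%, beside 7.47% of all genes tested). HSP90B1, the secretory-pathway form of HSP90, was at 151, 136, 156, 201 and 185 CPM in the conventional libraries and 265, 239, 211, 236 and 207 CPM in the organic libraries. The organic libraries all lay above the conventional ones, and the log2 fold change was 0.48 ± 0.14. CRELD2, a chaperone induced by misfolded secretory proteins, was likewise apart at 0.52 ± 0.15. HSPA5, the main chaperone of this compartment, was at 0.91 ± 0.31, but at 0.46 without organic replicate 1. BAG3, which couples chaperones to the turnover of Z-disc proteins, was at 0.92 ± 0.36 and at 0.44 without the same library.

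The proteasome, the protease complex that degrades ubiquitin-tagged proteins, stood slightly higher as a group. Of 34 members 30 had a log2 fold change above 0, with a median of 0.15. An unadjusted p under 0.05 was reached by 3 of them (8.82%), a share close to the 7.47% of all genes tested. The median was 0.25 without conventional replicate 4, the conventional library with the highest summed level (6981 CPM, against 4506 to 5183 in the other 4). It was 0.09 without both replicates 1, with 25 of 34 members higher, and 0.08 without replicates 1 and 3 of both systems, with 24 of 34. PSMD4, the ubiquitin receptor of the regulatory particle, was at 139, 127, 149.9, 207 and 156 CPM in the conventional libraries and 197, 177, 200.3, 189.9 and 217 CPM in the organic libraries. The groups overlapped through conventional replicate 4 alone, and the log2 fold change was 0.33 ± 0.14. Subunits PSMC3 and PSMD7 stood at 0.27 ± 0.12 and 0.28 ± 0.13.

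**Figure D2:**
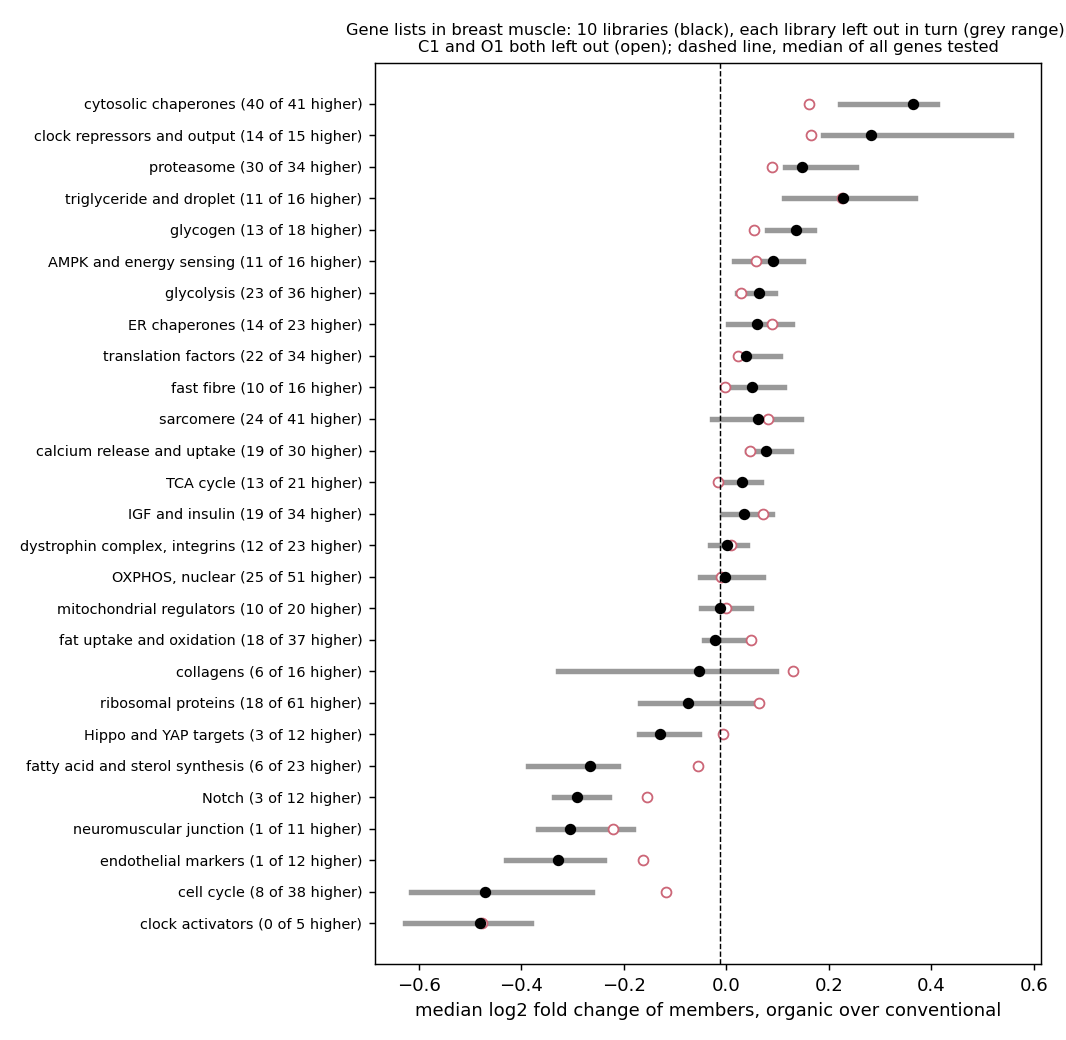
Median log2 fold change (organic over conventional) of the members of 27 gene lists, with the number of members above 0, over 10 libraries (black), with each library left out in turn (grey range) and without conventional replicate 1 and organic replicate 1 (open circles). Of the lists drawn, cytosolic chaperones lie highest at 0.36 and clock activators lowest at -0.48, and nuclear genes of oxidative phosphorylation lie at 0.00. The slow fibre list (-1.50, or 0.04 without conventional replicate 1) is not drawn. Nor is the glucocorticoid receptor list (0.43, or 0.06 without organic replicate 3 and 0.10 with log2 FPKM over 10 libraries).

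The clock list separated by role. Its activators were lower in 5 of 5 tested members (median -0.48) and its repressors and output genes higher in 14 of 15 (median 0.28). In the summed level the repressors and output genes lay at 1007 to 1296 CPM in conventional and 1477 to 2187 CPM in organic libraries, without overlap. A large part of that sum was BHLHE40, at 282 to 461 CPM in conventional and 434 to 1057 CPM in organic libraries. BHLHE40 was picked by p in these libraries, and its part in the separation was not tested. The list scores, given below, overlapped. Leaving out organic replicate 1 gave a repressor median of 0.19, leaving out both replicates 1 gave 0.17, and leaving out conventional replicate 4 gave 0.56. CSNK1E, the kinase that marks period proteins for breakdown, was at 29.1, 23.03, 21.3, 26.01 and 28.9 CPM in the conventional libraries and 45.1, 32.6, 40.1, 48.9 and 28.1 CPM in the organic libraries. Organic replicate 5 alone lay within the conventional range, and the log2 fold change was 0.60 ± 0.16. BHLHE41 was apart between the groups at 0.76 ± 0.19, BHLHE40 at 0.97 ± 0.23 overlapped by 1 library, and RORA, an activator of BMAL1 transcription, was at -0.94 ± 0.29. The hour of slaughter was not used here.

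In the scores of this list conventional replicate 4 took the organic side. Its activator score, the median over members of log2 CPM centred per gene, was -0.34, against 0.24 to 0.45 in the other 4 conventional libraries and -0.26 to -0.11 in the organic ones. Its repressor score of 0.05 lay above the other conventional values (-0.34 to -0.19) and within the organic range of -0.08 to 0.51. Its summed level of repressors and output genes, 1296 CPM, was however below that of all organic libraries. So were its values of BHLHE40, BHLHE41 and CSNK1E. In the proteasome score conventional replicate 4 was the highest of all 10 libraries at 0.26.

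**Figure D3:**
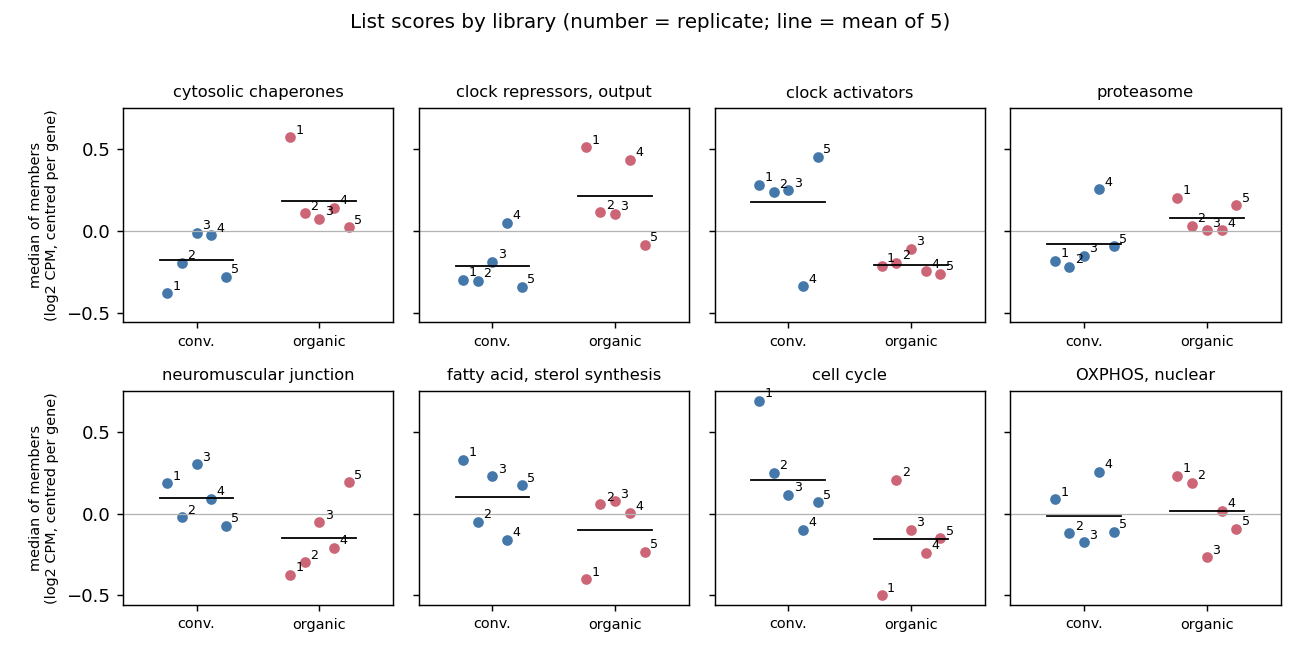
Score of 8 gene lists by library, as the median over members of log2 CPM centred on each gene's mean over the 10 libraries, with replicate numbers beside the points and a line at the mean of 5. Cytosolic chaperones are apart between the systems, conventional replicate 4 lies with the organic libraries for the clock and proteasome lists, and nuclear genes of oxidative phosphorylation overlap fully.

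Genes of insulin and nutrient signalling stood on both sides. AKT2, the insulin-responsive AKT kinase, was at 95.4, 122, 124, 117 and 121 CPM in the conventional libraries and 182, 129, 128, 139 and 144 CPM in the organic libraries. The groups did not overlap, and the log2 fold change was 0.32 ± 0.13. It was 0.23 without organic replicate 1, the highest library, and 0.16 without that library and conventional replicate 1, the lowest. AKT1 was at -0.33 ± 0.16, in the opposite direction and with overlapping groups, and IRS1, the adaptor that couples the insulin receptor to this cascade, was at -0.69 ± 0.29. IRS1 lay at 59.2, 86.2, 87.6, 35.7 and 89.9 CPM in the conventional libraries and 31.8, 31.6, 43.2, 40.6 and 74.6 CPM in the organic libraries. Conventional replicate 4 and organic replicate 5 each stood with the other system. Over the whole IGF and insulin list, 19 of 34 members stood higher (median 0.03). Of its 18 kinases of the cascade 12 were higher. An unadjusted p under 0.05 was reached by 2 of them (11.1%, beside 7.47% of all genes tested), AKT2 and the pseudokinase TRIB1 at 0.57 ± 0.18.

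The sestrins, stress-induced proteins that hold back mTORC1, differed in direction. SESN1, a FoxO target, was at 647, 1347, 505, 1283 and 658 CPM in the conventional libraries and 1896, 1229, 1263, 1269.8 and 1679.6 CPM in the organic libraries. Conventional replicates 2 and 4 were within the organic range, and the log2 fold change was 0.72 ± 0.27. SESN2, which responds to amino acid shortage, was at 102, 253, 197, 101 and 289.7 CPM in the conventional libraries and 57.7, 67.4, 115, 90.5 and 133 CPM in the organic libraries. It lay lower in organic muscle, at -1.02 ± 0.33, with conventional replicates 1 and 4 in the organic range. FOXO3 stood at 0.92 ± 0.27 and its target FBXO32, the muscle ubiquitin ligase atrogin-1, at 0.99 ± 0.33. In both, the groups overlapped through conventional replicate 4, and in FBXO32 through conventional replicate 2 as well. Without replicates 1 and 3 of both systems, FOXO3 was at 0.473, FBXO32 at 0.605 and SESN1 at 0.35, all weaker. SESN2 was at -1.145 there, not weaker. In their list of ubiquitin ligases and FoxO factors 7 of 12 members were higher (median 0.14), 3 of them and 1 lower member at an unadjusted p under 0.05 (33.3%). Of 11 wasting mediators 9 were higher (median 0.16). Over both lists 16 of 23 members were higher, and 7 higher and 2 lower ones reached an unadjusted p under 0.05 (39.1%, beside 7.47% of all genes tested). Their summed levels overlapped, at 3560 to 6874 CPM in conventional and 5836 to 9225 CPM in organic libraries.

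ULK1, the kinase that starts autophagy and is set by both mTORC1 and AMPK, was at 50.9, 51.9, 42.4, 10.8 and 84.9 CPM in the conventional libraries and 12.9999, 12.3, 13.9, 26.1 and 19.4 CPM in the organic libraries. The organic libraries lay below 4 of the 5 conventional ones, replicate 4 being the exception, and the log2 fold change was -1.51 ± 0.43. The autophagy and lysosome list, ULK1 included, gave no common direction: 17 of 30 members were higher, with a median of 0.03, and ATG9A, the membrane carrier protein of autophagosomes, stood at 0.43 ± 0.17.

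**Figure D4:**
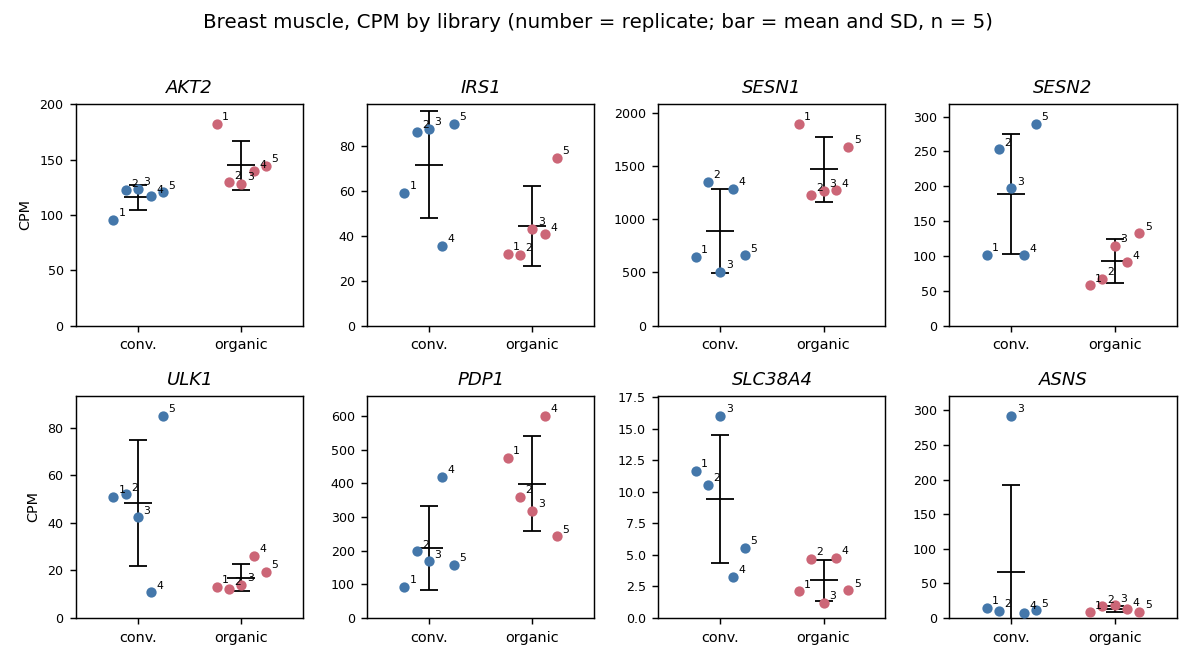
CPM by library of 8 genes of insulin, nutrient, pyruvate and amino acid handling, on linear axes from 0, with replicate numbers beside the points and the mean and SD of 5 libraries as bars (cut at 0). AKT2 is the gene whose groups do not overlap, conventional replicate 4 lies with organic libraries in IRS1, SESN1, SESN2 and ULK1, and ASNS is high in conventional replicate 3 only.

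Genes of glucose handling stood slightly to the higher side. Of 36 glycolysis genes 23 were above 0, with a median of 0.06 that was 0.02 without organic replicate 1. Of 18 glycogen genes 13 were above 0, with a median of 0.14 that was 0.08 without conventional replicate 4 and 0.05 without both replicates 1. PDP1, the phosphatase that activates pyruvate dehydrogenase, was at 92.8, 198, 169, 419.7 and 158 CPM in the conventional libraries and 476, 361, 319, 601 and 243 CPM in the organic libraries, with conventional replicate 4 above 3 organic libraries, and a log2 fold change of 0.95 ± 0.37. Its partner enzyme PDP2 was at 0.42 ± 0.17. STBD1, which anchors glycogen to membranes, was at 560.3, 646, 615, 594 and 550.4 CPM in the conventional libraries and 948, 905, 574, 922 and 724 CPM in the organic libraries. All organic libraries except replicate 3 were above all conventional ones, and the log2 fold change was 0.46 ± 0.15. PPP1R3E, a subunit that targets protein phosphatase 1 to glycogen, was at 0.40 ± 0.15. GPI, the glycolytic isomerase of glucose 6-phosphate, had groups that did not overlap, at 0.37 ± 0.14, and the hexokinase HK2 was at 0.71 ± 0.20, although it overlaps other measured genes.

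Nuclear genes of mitochondrial function showed no shared direction. Nuclear genes of oxidative phosphorylation were higher in 25 of 51 members (median 0.00), enzymes of the citric acid cycle in 13 of 21 (median 0.03), regulators of mitochondrial genes in 10 of 20 (median -0.01), and carnitine shuttle and beta-oxidation genes in 11 of 21 (median 0.01). In the lists of oxidative phosphorylation and mitochondrial regulators 0 members had an unadjusted p under 0.05. Cytosolic ribosomal proteins were lower in 43 of 61 members (median -0.08), but their median was 0.06 without conventional replicate 1. Of 13 tested genes of the mitochondrial genome 10 were higher, with a median of 0.10 that was -0.02 without organic replicate 2. Without both replicates 1, 6 of 13 were higher. An unadjusted p under 0.05 was reached by 1 higher and 1 lower member (15.4%, beside 7.47% of all genes tested). Transcripts of the mitochondrial genome took 4.23% ± 0.25 (SD, n = 5) of the counts in conventional and 4.35% ± 0.91 (SD, n = 5) in organic libraries, a difference of 0.11 percentage points (exact permutation test over 252 splits, two-sided p = 0.825, where 0.00794 is the smallest possible). UCP3, the uncoupling protein of muscle mitochondria, was at 496, 464, 1154, 1104 and 872 CPM in the conventional libraries and 1553, 1039.5, 1277, 1134 and 1209 CPM in the organic libraries. The organic libraries filled the upper end, with conventional replicates 3 and 4 among them, and the log2 fold change was 0.60 ± 0.25.

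Lipid genes divided by role only in part. Fatty acid and sterol synthesis stood lower in 17 of 23 members, with a median of -0.27. Triglyceride and droplet genes were higher in 11 of 16, with a median of 0.23, or 0.11 without organic replicate 3. In that second list, however, 1 higher and 2 lower members reached an unadjusted p under 0.05 (18.8%, beside 7.47% of all genes tested). Its mean score per library was -0.03 in conventional and 0.00 in organic muscle. The synthesis median was -0.06 without conventional replicate 1 and organic replicate 1, and 0.07 without replicates 1 and 3 of both systems, where 14 of 23 members were higher. DHCR7, the last enzyme of cholesterol synthesis, was at 2.74, 2.504, 4.48, 2.58 and 2.82 CPM in the conventional libraries and 0.619, 1.67, 2.47, 1.96 and 0.7796 CPM in the organic libraries. The groups were narrowly apart at low level, with a log2 fold change of -0.997 ± 0.37. HMGCS1, which makes HMG-CoA, stood at -0.33 ± 0.12 and ELOVL6, which elongates saturated fatty acids, at -0.97 ± 0.39. LPIN1, the phosphatidate phosphatase lipin 1, was the lowest member of the triglyceride and droplet list at -0.92 ± 0.35, against that list's median.

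Amino acid genes were dominated by one library. ASNS, asparagine synthetase, was at 14.2, 10.6, 292, 7.44 and 10.9 CPM in the conventional libraries and 7.87, 16.96, 17.97, 12.1 and 8.65 CPM in the organic libraries. Conventional replicate 3 stood far above all other libraries, and the log2 fold change of -2.39 ± 1.12 became 0.24 without it. The neutral amino acid transporter SLC1A4 behaved alike, at -1.73 ± 0.75 and at -0.21 without the same library. SLC38A4, a sodium-coupled transporter of the SNAT family, was also highest in that library but did not rest on it alone. Without replicates 1 and 3 of both systems its log2 fold change was -0.737. SLC38A4 was at 11.7, 10.6, 16.03, 3.24 and 5.57 CPM in the conventional libraries and 2.12, 4.69, 1.198, 4.76 and 2.18 CPM in the organic libraries, with conventional replicate 4 alone below the highest organic library. Its log2 fold change of -1.65 ± 0.46 over all 10 libraries was -1.38 without conventional replicate 3.

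At the neuromuscular junction, where the motor nerve meets the fibre, 10 of 11 tested genes stood lower. Their median was -0.30, or -0.18 without conventional replicate 3. It was -0.10 without replicates 1 and 3 of both systems, with 3 of 11 higher. AGRN encodes agrin, a signal that clusters acetylcholine receptors. It was at 28.8, 22.7, 16.8, 15.9 and 14.2 CPM in the conventional libraries and 7.16, 12.1, 16.8, 12.2 and 12.5 CPM in the organic libraries, with organic replicate 3 above conventional replicates 4 and 5. Its log2 fold change was -0.69 ± 0.24. It was the 1 member with an unadjusted p under 0.05 (9.09%), a share close to the 7.47% of all genes tested. RAPSN, which anchors the receptors, was at -0.30 ± 0.17, the agrin-responsive kinase MUSK at -0.42 ± 0.27 and the esterase ACHE, the 1 higher member, at 0.37 ± 0.25.

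In the list of satellite cell and myoblast genes 14 of 21 members were lower, with a median of -0.18 that was -0.11 without organic replicate 1, -0.06 without both replicates 1 and -0.35 without organic replicate 3. An unadjusted p under 0.05 was reached by 4 members, all lower (19%, beside 7.47% of all genes tested). Among them were MYOD1, the myogenic determination factor, at -0.73 ± 0.27 and MEF2C, its partner in fibre gene activation, at -0.66 ± 0.26. MYOD1 was at -0.58 without conventional replicate 2, and MEF2C at -0.53 without conventional replicate 3. Satellite cell markers were lower in 4 of 5 tested members, with summed levels of 134.8 to 172.2 CPM in conventional and 116.5 to 151.2 CPM in organic libraries, none of the 6 listed markers being at 0 throughout. In bulk muscle, fewer cells of a type and less RNA per cell cannot be told apart. Genes of TGF-beta and BMP signals gave no common direction, with 20 of 36 members higher (median 0.03), and of their 12 inhibitors 8 were higher (median 0.04). The 2 inhibitors at an unadjusted p under 0.05 (16.7%, beside 7.47% of all genes tested) were both lower. FST, follistatin, which binds myostatin and activins, was at 9.23, 9.01, 8.47, 12.6 and 10.4 CPM in the conventional libraries and 6.28, 8.402, 6.22, 8.31 and 5.15 CPM in the organic libraries. The groups did not overlap, and the log2 fold change was -0.53 ± 0.19. GREM1, a secreted inhibitor of bone morphogenetic proteins, was at -1.34 ± 0.53, near the detection limit at 0.302 to 2.68 CPM.

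Notch genes were lower in 9 of 12 tested members, with a median of -0.29, or -0.16 without both replicates 1. LFNG, which adds sugars to the Notch receptor, was at -0.44 ± 0.16 and NOTCH1 at -0.34 ± 0.16. The target gene HES1 stood the other way at 0.97 ± 0.39, with organic values of 60.5 to 178 CPM over conventional values of 26.8 to 96.7 CPM. TEAD3, a DNA-binding partner of YAP, was at 44.1, 81.5, 47.5, 85.8 and 49.4 CPM in the conventional libraries and 149, 89.02, 80.6, 105 and 91.4 CPM in the organic libraries. Organic replicate 3 alone lay under the highest conventional library, and the log2 fold change was 0.74 ± 0.23, while 9 of 12 genes of its Hippo list were lower (median -0.13). That direction was lost without both replicates 1 (6 of 12 lower, median -0.01) and turned without replicates 1 and 3 of both systems (8 of 12 higher, median 0.05). The cell cycle list was lower in 30 of 38 members (median -0.47, but -0.26 without conventional replicate 1 and -0.12 without both replicates 1). Without replicates 1 and 3 of both systems its median was -0.04, with 17 of 38 members higher. Its summed levels overlapped, at 467.4 to 533 CPM in conventional and 426.5 to 537.2 CPM in organic libraries. CCND3, cyclin D3, which also acts in muscle differentiation, stood against it at 0.41 ± 0.12.

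Most lists of contractile genes had medians near 0. Fast fibre genes were higher in 10 of 16 members (median 0.05), sarcomere genes in 24 of 41 (median 0.06), the dystrophin complex and integrins in 12 of 23 (median 0.00), and genes of calcium release and uptake and ion channels in 19 of 30 (median 0.08). LDB3, a Z-disc protein, was at 0.34 ± 0.14, and PDLIM7, of the same PDZ-LIM family, at 0.48 ± 0.16. PPP3CA, the catalytic subunit of calcineurin, which links calcium to fibre gene programmes, was at 0.36 ± 0.16. Slow fibre genes rested on one library. Of 8 tested members 6 were lower, with a median of -1.50, but without conventional replicate 1 the median was 0.04, and without both replicates 1 it was 0.14 with 6 of 8 higher. The score of this list was 3.12 in conventional replicate 1, against -0.47 to 0.14 in the other conventional libraries and -1.18 to 0.56 in the organic ones. MYH7B, a slow-type myosin heavy chain, was at 429.6, 0.787, 5.32, 1.77 and 1.19 CPM in the conventional libraries and 0.177, 0.303, 0.449, 0.227 and 30.4 CPM in the organic libraries. Conventional replicate 1 stood far above all others, with organic replicate 5 next. MB, myoglobin, the oxygen store of oxidative fibres, was at 77.9 CPM in conventional replicate 1 and at 0.429 to 6.78 CPM in the other 9 libraries. LMOD2, the thin filament leiomodin of heart and slow muscle, was at 29.4, 0.429, 1.58, 1.33 and 1.04 CPM in the conventional libraries and 0.619, 0.606, 0.449, 0.529 and 1.56 CPM in the organic libraries. The level in conventional replicate 1 set its log2 fold change of -3.15 ± 1.18, which was -0.53 without that library.

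In the matrix, collagens had no stable direction: 6 of 16 were higher, with a median of -0.05 that ran from -0.33 without organic replicate 2 to 0.10 without organic replicate 1. ADAMTS4, a protease that cuts aggrecan and versican, was the member with the smallest p. It was at 10.3, 3.65, 2.24, 3.39 and 10.3 CPM in the conventional libraries and 12.5, 11.96, 31.1, 11.9 and 22.6 CPM in the organic libraries. Each organic library lay above each conventional one, and the log2 fold change was 1.59 ± 0.45, although the gene overlaps an unnamed gene. LAMA4, the laminin chain of vessel basement membranes, was at -0.53 ± 0.19, and COL28A1 at -0.50 ± 0.19.

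Endothelial markers stood on the same side as LAMA4. Of the 12 endothelial markers measured 11 were lower, with a median of -0.33, or -0.16 without both replicates 1, and with summed levels of 458.2 to 728.9 CPM in conventional and 435.5 to 610.7 CPM in organic libraries. None of the 12 was at 0 throughout. The list of hypoxia and vessel growth gave no common direction, with 13 of 28 members higher (median -0.04). In it 3 higher and 2 lower members reached an unadjusted p under 0.05 (17.9%, beside 7.47% of all genes tested). Among growth factors, VEGFD was at -0.54 ± 0.23, while PGF, placental growth factor, was at 0.45 ± 0.19 and PDGFA at 0.42 ± 0.15. The part of the endothelial share in these values was not tested.

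The interferon and inflammation lists stood slightly to the higher side, in large part through organic replicate 3. Of 38 interferon genes 26 were higher (median 0.14). An unadjusted p under 0.05 was reached by 4 higher and 1 lower member (13.2%, beside 7.47% of all genes tested). Of 36 inflammation genes 22 were higher (median 0.11). Here 1 higher and 2 lower members reached an unadjusted p under 0.05 (8.33%), a share close to that of all genes tested. Without organic replicate 3 the medians were -0.002 and -0.01. The interferon sensors and signalling genes turned to -0.12 without that library. The 17 interferon effectors (13 higher, median 0.17) kept a median of at least 0.08 whichever 1 library was left out. Antigen presentation genes had no direction, with 5 of 9 higher (median 0.004). Targets of the glucocorticoid receptor, listed with the receptor, were higher in 8 of 13 members. Their median of 0.43 was unstable, at 0.06 without organic replicate 3 and 0.10 with log2 FPKM of all 10 libraries. The list score of organic replicate 3 itself was -0.07, within the organic range of -0.11 to 0.34. Some named members lay lower. PTGES, which makes prostaglandin E2, was at 15.6, 9.44, 6.23, 11.9 and 19.9 CPM in the conventional libraries and 3.63, 8.86, 5.39, 6.88 and 8.26 CPM in the organic libraries. Organic replicates 1 and 3 lay below all conventional libraries and the other organic ones within their range, and the log2 fold change was -0.93 ± 0.31. BF1, a class I major histocompatibility gene whose reads may be shared with near-identical copies and overlapping genes, was at -0.82 ± 0.31. Macrophage markers summed to 55.64 to 142.1 CPM in conventional and 61.64 to 131 CPM in organic libraries, and T cell markers to 12.97 to 40.79 and 19.76 to 35.01 CPM.

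Whether the muscle difference departs from that in liver was tested in a fit over all 20 libraries. The fit treated them as independent. The labels do not say whether same-numbered muscle and liver libraries came from the same bird. With edgeR, 0 of 14447 genes passed (0%), 771 had an unadjusted p under 0.05 (5.34%), and DESeq2 called 0. Lipid genes were among those with opposite values in the tissues. DHCR7 was at -0.997 ± 0.37 in muscle and 1.005 ± 0.45 in liver (unadjusted p of the difference 0.00393), ELOVL6 at -0.97 ± 0.39 and 0.75 ± 0.28 (unadjusted p 0.00168), and LPIN1 at -0.92 ± 0.35 and 0.70 ± 0.24 (unadjusted p 0.00161). ULK1 stood at -1.51 ± 0.43 in muscle and 0.48 ± 0.30 in liver, SLC38A4 at -1.65 ± 0.46 and 0.14 ± 0.22, and CTNNB1, beta-catenin, at -0.29 ± 0.13 and 0.60 ± 0.20.

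Several leading muscle genes had values near 0 or of the other sign in liver. CMC4 was at 0.43 ± 0.11 in muscle and -0.24 ± 0.11 in liver (unadjusted p of the difference 0.000193), ZSWIM5 at -0.28 ± 0.16 in liver (unadjusted p 0.000464), SIK3 at -0.22 ± 0.15 (unadjusted p 0.000665) and CSNK1E at -0.21 ± 0.13 (unadjusted p 0.000777). CCND3 and SOX13 were at -0.19 ± 0.13 and 0.07 ± 0.25 in liver. Other values lay close in the tissues: HSP90B1 at 0.55 ± 0.23, GPI at 0.38 ± 0.23, FOXO3 at 0.86 ± 0.41, LAMA4 at -0.51 ± 0.31 and SLC37A1 at -1.04 ± 0.19 in liver. None of these differences passed with adjustment over all genes. The genes compared with liver here were named for a small p in muscle, and the muscle change is part of the tested difference. Small unadjusted p-values and liver values nearer 0 therefore follow in part from the pick, and are given as a description.

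**Figure D5:**
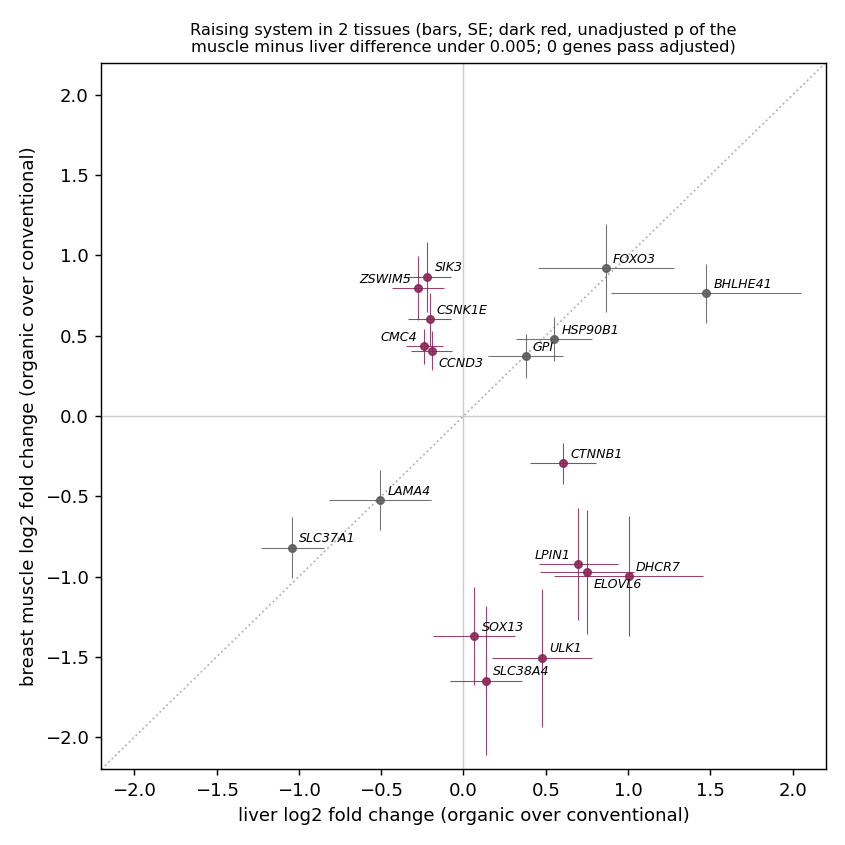
Log2 fold change (organic over conventional) in breast muscle against that in liver for 18 named genes, with SE bars and the line of equal values dotted. DHCR7, ELOVL6, LPIN1, ULK1 and CTNNB1 lie below 0 in muscle and above 0 in liver, and CMC4, ZSWIM5, SIK3, CSNK1E and CCND3 the reverse, while 0 genes passed the adjusted test of the difference.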

How the data were processed

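Breast muscle of 5 conventional and 5 organic birds was profiled by RNA sequencing, per the labels, with total RNA from TRIzol. Per the submitters' processing notes, the build was GRCg6a and the tools included HISAT2 2.0.5 and DESeq2 1.20.0. No source used here gives the counting tool or strandedness, so values of overlapping genes and near-identical copies are uncertain. The authors deposited read counts and FPKM per gene. Counts were tested as deposited with edgeR 4.0.16 in R 4.3.3 (quasi-likelihood F-test, robust, TMM scaling, filterByExpr minimum count 10, two-sided, Benjamini-Hochberg threshold 0.05). DESeq2 1.42.0 and limma 3.58.1 (on log2 of the deposited FPKM + 1, and voom with library weights) served as alternatives. The FPKM factor of a library was 0.824 to 1.07 times its total counts, which shows a scaling between libraries before deposit.

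The table gives no symbol for 13482 genes, which held 9.69% to 11.5% of the counts; 720 received one through a RefSeq table of another assembly, for names only. The steps were tested on simulated counts. Gene lists (39, plus 15 of cell type markers) and members were chosen with earlier results of these data known, and lists are described by counts and medians, without a test. Named genes are the 12 with the smallest p in each direction, the DESeq2 calls, the most abundant per kilobase and up to 4 members per list with the smallest p; NOTCH1, MUSK, ACHE, PSMC3 and PSMD7 were named after their values were seen. Intervals and tests cover these libraries only.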

Additional observations from a re-analysis of the deposited data

Results flagged for a closer look

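Of 218 groups of 5 values examined (each named gene, the library shares and the summed marker lists in each system), 15 held a library whose gap to its neighbour took more than 0.71 of the range (on the log2 scale for CPM), where chance flags about 1 in 20 groups. That rate is for independent groups not picked by their values. These groups share the same 10 libraries, and most named genes were picked by a small p in them.

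Conventional replicate 4 was low for FBXL4 (14.44 CPM, against 28.68 to 34.33 in the other 4) and MEF2C (42.14 CPM, against 110.5 to 140.5), and high for ACHE (7.662 CPM, against 4.111 to 4.9). Conventional replicate 3 was high for ASNS (291.8 CPM, against 7.441 to 14.21) and DHCR7 (4.485 CPM, against 2.504 to 2.824). Conventional replicate 1 was low for AKT2 at 95.42 CPM, against 117 to 123.7.

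Organic replicate 1 was high for HSPA5 (482.8 CPM, against 143.1 to 188.3), PPP1R3E (96.39 CPM, against 67.78 to 71) and the summed muscle fibre markers (151200 CPM, against 129800 to 131800). Organic replicate 3 was low for TNFRSF19 (0.9736 CPM, against 1.968 to 2.192) and VEGFD (7.789 CPM, against 14.38 to 17.62). Organic replicate 5 was high for LMOD2 (1.559 CPM, against 0.4494 to 0.619) and MYH7B (30.41 CPM, against 0.1769 to 0.4494). Heterophil markers summed to 11.52 CPM in conventional replicate 5, against 2.217 to 3.168 in the other conventional libraries, and to 31.98 CPM in organic replicate 3, against 2.963 to 4.864.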

How the results depend on the processing

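The count of 0 genes called held with RLE scaling, without the filter on low counts, with log2 FPKM, with the spread of all 20 libraries and with library weights, whereas DESeq2 called 15 and leaving out each library in turn gave 0 to 1 calls. Replicate numbers did not pair the libraries: deviations of same-numbered libraries correlated at -0.18 to 0.08, and with the replicate block edgeR called 0 genes, 821 having an unadjusted p under 0.05 against 934 without it. In 2 alternatives chosen after seeing the data, 0 genes were called, and 498 genes had an unadjusted p under 0.05 without both replicates 1, and 526 without replicates 1 and 3 of both systems. The difference in mitochondrial share ran from -0.202 to 0.38 percentage points over the libraries left out in turn, being -0.0247 without organic replicate 1 and -0.202 without organic replicate 2. ASNS ran from -2.69 to 0.235 (without conventional replicate 3) and was 0.382 without replicates 1 and 3 of both systems, where SLC1A4 was 0.166. MYH7B ran from -8.188 to 1.49 and MB from -3.066 to 0.024 over the libraries left out in turn, each highest without conventional replicate 1. Without both replicates 1 they were 1.807 and 0.304, and without replicates 1 and 3 of both systems 3.044 and 0.185. The other 88 named genes kept their sign in every setting, but most named genes were picked by a small p in these same libraries, which favours that outcome. The test against liver called 0 genes under all its alternatives. Depth limits the comparison to the 12496 of 27170 genes that passed the filter on low counts.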

Other observations

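Conventional replicate 4 was often the conventional library nearest to the organic ones. Among the 420 genes that stood higher at an unadjusted p under 0.05, it was the highest conventional library in 170 (40.5%), and among the 514 lower genes it was the lowest in 201 (39.1%). Over all genes tested the same position fell to it in 26.6% and to conventional replicate 3 in 25.6%. Conventional replicate 1 held that position in 6.43% and 6.61% of the higher and lower genes, against 11.1% over all genes. Without conventional replicate 4, 1222 genes had an unadjusted p under 0.05, against 934 with it. The genes were picked by these same libraries, so the shares are a description.

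Red cell transcripts stood out in one library. Markers of erythrocytes, which keep their nucleus in birds, summed to 434.5 CPM in organic replicate 4 and to 72.25 to 162.9 CPM in the other organic libraries, against 75.49 to 104.4 CPM in the conventional ones. Fibroblast markers were at 13000 CPM in organic replicate 2, above the 3583 to 8646 CPM of the conventional libraries.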
